A study of Mus musculus with 6 samples.

Results

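Intracisternal A particle (IAP) elements were followed through 16 repeat names, every name in the deposited repeat tables that starts with IAP, out of 1217 repeat names in all. Of the 16, 6 name internal parts and 10 name long terminal repeats (LTRs), and each name sums the reads of many genomic copies. The RNA was polyadenylated and came from mouse embryos taken whole at E10.5, 3 knockouts and 3 controls, on a mixed background of C57BL/6, CD1 and 129. The knockouts were H3f3afl/- and H3f3bfl/-, so each gene of the histone variant H3.3 had a null and a floxed allele. The controls were H3f3afl/+ and H3f3bfl/+, with a wild-type and a floxed allele. Every embryo of both groups also carried Sox2-CreTg/0, a Cre recombinase transgene active in the epiblast and not in trophoblast, and was Trp53-/-, without the tumour suppressor p53. The controls were thus themselves open to deletion of their floxed alleles and were p53-null, and the comparison is not one with unmodified embryos. Nothing in the labels says whether the embryos were littermates, and p-values cover no more than the variation among the 6 libraries.

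IAPs are endogenous retroviruses of the mouse that have kept mobile copies in the genome. The internal part encodes the Gag and Pol proteins, and the LTR at each end holds the promoter and the polyadenylation signal. Recombination between the LTRs of a copy leaves a solitary LTR behind, so LTR names collect reads from many places that have no internal part. In somatic cells IAPs are held silent by DNA methylation, kept up by Dnmt1 and Uhrf1, and by methylation of histone H3 at lysine 9, laid down by Setdb1 together with the co-repressor Trim28. In mouse embryonic stem cells H3.3 and its chaperones Atrx and Daxx are found at such elements, which is the background to asking whether IAP transcripts differ in embryos with both H3.3 genes targeted.

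The genotype was visible in the gene counts. H3f3a had 1818, 1744 and 1996 counts in knockouts 1, 2 and 3, against 9851, 10775 and 9685 in controls 1, 2 and 3, and H3f3b had 12164, 13626 and 11431 counts in the knockouts, against 19717, 21379 and 18942 in the controls. The counts pool all exons, so they do not measure how much functional H3.3 transcript was left. Libraries held 24952853 to 30461689 gene counts and 2661391 to 4600118 repeat counts, of which 4702 to 6496 were in IAP names. Alignments that matched no counted gene feature are called alignments outside genes here. Alignments in introns may be among them, so the name does not mean that they lay between genes. They were 18.3%, 10.6% and 18.0% of all alignments in knockouts 1, 2 and 3, against 9.79%, 10.7% and 13.1% in controls 1, 2 and 3. In control 1 they numbered 4453823, fewer than its 4600118 repeat counts, so repeat counts were not all among them. Knockouts 1 and 3 stand above all the other libraries in this share, and knockout 2 lies among the controls. Alignments at more than one place, which were not counted, were 20.9%, 18.2% and 20.3% in the knockouts, against 22.6%, 22.1% and 21.4% in the controls, so that the groups did not overlap.

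No IAP name passed the test. Among 14 IAP names with enough counts to be tested, none was higher and none lower in knockout embryos at an adjusted p under 0.05 by edgeR's quasi-likelihood test, with p-values adjusted over all 851 tested repeat names. The share called over all tested repeat names was 0% in either direction. At an unadjusted p under 0.05 there were 6 IAP names, all with higher values in the knockouts, against 12.2% of all tested names in that direction and 0.235% in the other. Every knockout lay above every control for 3 of the 14 IAP names, against 10.8% of all tested names. No tested IAP name had every knockout below every control, against 1.29% of all tested names. The log2 fold change was above 0 for 12 of the 14, with a median of 0.61, while 91.2% of all tested repeat names were above 0, with a median of 0.48. The IAP values are therefore to be read against a shift of most repeat names. DESeq2 and limma-voom called no IAP name either, with lowest adjusted p-values of 0.208 and 0.367.

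IAP counts were concentrated in a few names. Levels are given as CPM, the counts of a name per 1000000 gene counts of the same library, with those totals scaled by trimmed mean of M-values (TMM) factors. The lengths of the repeat names were not used, so the levels compare libraries for one name and not one name with another. IAPEz-int, the internal part of the youngest IAP copies, took 38.2% of IAP counts in the knockouts and 42.9% in the controls. IAPEY3-int took 30.9% in the knockouts and 27.9% in the controls, and IAPLTR1_Mm 11.7% in the knockouts and 15.7% in the controls. IAP-d-int came next, with 5.99% in the knockouts and 3.58% in the controls.

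**Figure D1:**
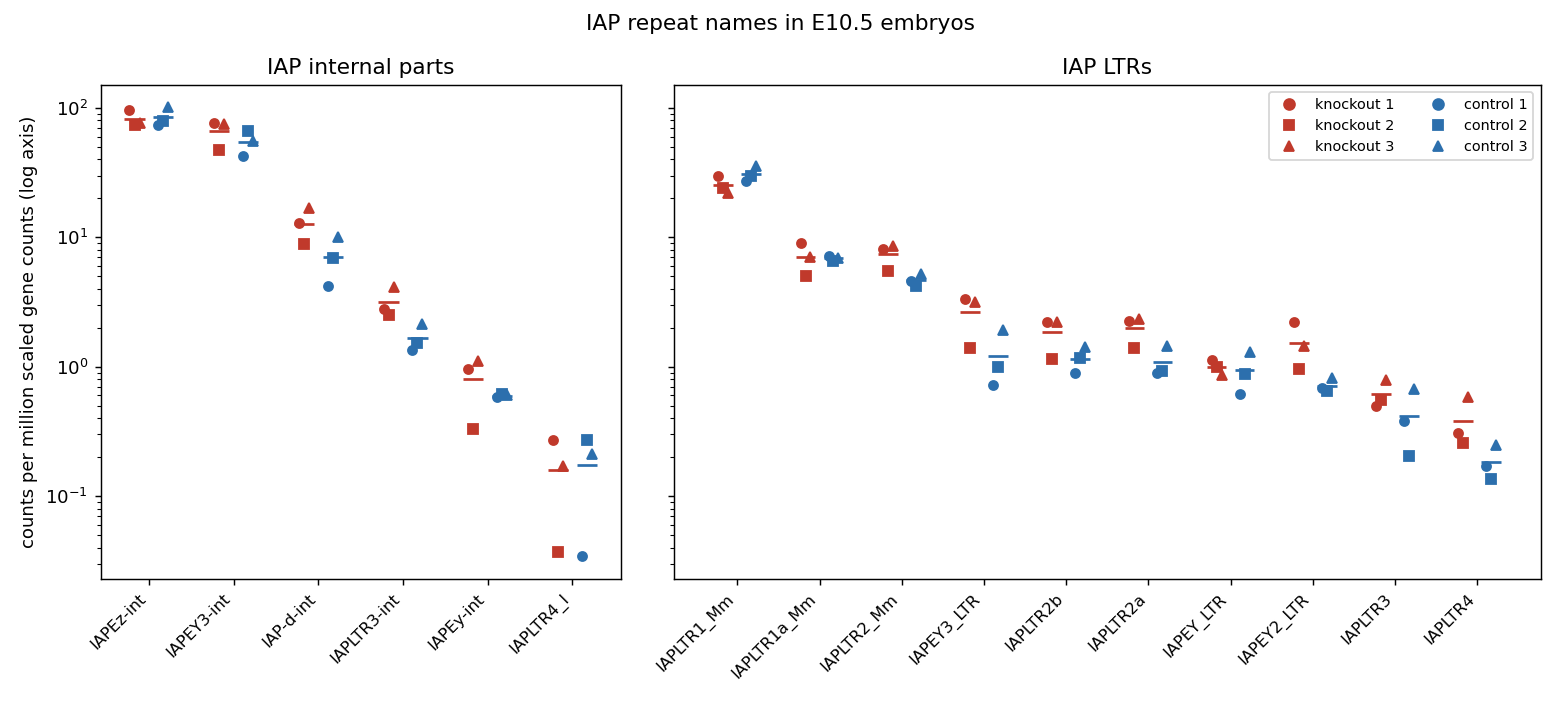
Level of each IAP repeat name in each library, as CPM of scaled gene counts on a log axis, with knockouts in red left of controls in blue and a line at each group mean (n = 3 each). IAPEz-int and IAPLTR1_Mm overlap between the groups, while IAPLTR3-int, IAPEY2_LTR, IAPLTR2_Mm and IAPLTR4 have every knockout above every control. IAPLTR4 had too few counts to be tested. The others are 3 of 14 tested IAP names, against 10.8% of all tested repeat names.

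Among internal parts, the most counted name did not separate the groups. IAPEz-int had 96.9, 73.4 and 76.7 CPM in knockouts 1, 2 and 3, against 73.4, 79.3 and 101 CPM in controls 1, 2 and 3. Knockout 1 and control 3 were high, and the groups overlapped throughout. The means were 82.3 ± 12.7 CPM in knockouts and 84.4 ± 14.3 CPM in controls (SD, n = 3 each), and the log2 fold change was -0.036 ± 0.21 (SE) with an edgeR adjusted p of 0.905. Its 95% interval ran from -0.52 to 0.45, so a 2-fold change of the IAPEz-int reads that could be placed uniquely lies outside it.

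IAPEY3-int belongs to the IAPEY names, which trace to IAP copies with an envelope gene that were first described on the mouse Y chromosome. It had 76.4, 47.3 and 75.0 CPM in knockouts 1, 2 and 3, against 42.3, 66.4 and 55.3 CPM in controls 1, 2 and 3. Knockouts 1 and 3 were the highest libraries, but knockout 2 lay below controls 2 and 3. The log2 fold change was 0.28 ± 0.26 (SE), with an edgeR adjusted p of 0.451. IAPEy-int, with 9 to 32 counts per library, had 0.963, 0.332 and 1.10 CPM in the knockouts, against 0.583, 0.612 and 0.601 CPM in the controls, and its adjusted p was 0.519. The Y-linked gene Ddx3y had 100, 99.8 and 96.9 CPM in the knockouts, against 77.3, 89.2 and 92.6 CPM in the controls, so a Y chromosome was expressed in all 6 libraries.

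IAP-d-int and IAPLTR3-int had the 2 largest log2 fold changes of the 5 tested internal parts. IAP-d-int had 333, 239 and 486 counts in knockouts 1, 2 and 3, against 123, 203 and 285 in controls 1, 2 and 3. Scaled, these were 12.8, 8.82 and 16.7 CPM in the knockouts, against 4.22, 6.90 and 10.1 CPM in the controls. Knockout 2 lay below control 3, and the other 2 knockouts lay above all controls. The log2 fold change was 0.86 ± 0.36 (SE), 1.81-fold on the means, with an unadjusted p of 0.0471 and an edgeR adjusted p of 0.28. IAPLTR3-int, the internal part that goes with the LTR named IAPLTR3, had 2.81, 2.51 and 4.12 CPM in the knockouts, against 1.34, 1.53 and 2.12 CPM in the controls. It was the only internal part whose groups did not overlap, which held with knockouts higher for 10.8% of all tested repeat names. Its log2 fold change was 0.92 ± 0.32, with an edgeR adjusted p of 0.28. IAPLTR4_I did not have enough counts for the test, with 7, 1 and 5 counts in the knockouts, against 1, 8 and 6 in the controls.

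No LTR name was called, and differences between LTR families were not tested. IAPLTR1_Mm and IAPLTR1a_Mm, the LTRs that flank most young IAPEz copies, had log2 fold changes near or below 0. IAPLTR1_Mm had 29.6, 24.0 and 22.1 CPM in knockouts 1, 2 and 3, against 27.2, 29.7 and 35.6 CPM in controls 1, 2 and 3. Knockouts 2 and 3 were the 2 lowest libraries, and knockout 1 lay within the controls. Its log2 fold change of -0.29 ± 0.21 (SE) was the lowest of the 14, with an edgeR adjusted p of 0.339. IAPLTR1a_Mm had 9.09, 5.06 and 7.03 CPM in the knockouts, against 7.13, 6.60 and 6.96 CPM in the controls. Its knockouts lay on either side of the controls, and the log2 fold change was 0.034 ± 0.25 with an adjusted p of 0.924.

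IAPLTR2_Mm, IAPLTR2a and IAPLTR2b name another type of IAP LTR. IAPLTR2_Mm had 210, 149 and 251 counts in knockouts 1, 2 and 3, against 134, 123 and 148 in controls 1, 2 and 3. Scaled, this gave 8.09, 5.50 and 8.61 CPM in the knockouts and 4.59, 4.18 and 5.23 CPM in the controls, so that every knockout lay above every control, knockout 2 by a narrow margin. The log2 fold change was 0.66 ± 0.25 (SE), 1.59-fold on the means, with an unadjusted p of 0.0283 and an edgeR adjusted p of 0.28. IAPLTR2a, at 2.27, 1.40 and 2.33 CPM in the knockouts and 0.891, 0.918 and 1.45 CPM in the controls, and IAPLTR2b, at 2.20, 1.14 and 2.20 CPM in the knockouts and 0.891, 1.16 and 1.41 CPM in the controls, overlapped only through knockout 2. Their log2 fold changes were 0.88 and 0.68, both with an edgeR adjusted p of 0.28.

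LTRs of the IAPEY names included the 2 largest log2 fold changes of the 14. IAPEY2_LTR had 57, 26 and 42 counts in knockouts 1, 2 and 3, against 20, 19 and 23 in controls 1, 2 and 3, or 2.20, 0.960 and 1.44 CPM in the knockouts and 0.686, 0.646 and 0.813 CPM in the controls. The groups did not overlap, and the log2 fold change was 1.09 ± 0.38 (SE), with an edgeR adjusted p of 0.28. IAPEY3_LTR had 3.35, 1.40 and 3.16 CPM in the knockouts, against 0.720, 0.986 and 1.91 CPM in the controls. Knockout 2 again lay within the controls, and the log2 fold change was 1.13 ± 0.48 with the same adjusted p. IAPEY_LTR, at 1.12, 0.997 and 0.858 CPM in the knockouts and 0.617, 0.884 and 1.31 CPM in the controls, had a log2 fold change of 0.081 ± 0.37 and an adjusted p of 0.883.

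The remaining LTR names were sparse. IAPLTR3 had 13, 15 and 23 counts in the knockouts, against 11, 6 and 19 in the controls, with a log2 fold change of 0.56 ± 0.49 (SE) and an edgeR adjusted p of 0.41. IAPLTR4 had 8, 7 and 17 counts in the knockouts, against 5, 4 and 7 in the controls, and did not pass the filter on low counts. Its 3 knockout values, 0.308, 0.258 and 0.583 CPM, lay above its control values of 0.171, 0.136 and 0.247 CPM, at counts too low for a firm statement.

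Summed by kind and scaled by gene counts, neither internal parts nor LTRs separated the groups. Internal parts summed to 190, 132 and 174 CPM in knockouts 1, 2 and 3, against 122, 155 and 169 CPM in controls 1, 2 and 3, with means of 165 ± 29.8 CPM in knockouts and 149 ± 24.1 CPM in controls (SD, n = 3 each). LTRs summed to 58.7, 41.2 and 49.1 CPM in the knockouts, against 43.2, 45.4 and 55.6 CPM in the controls, with means of 49.7 ± 8.74 CPM in knockouts and 48.1 ± 6.63 CPM in controls. On this scale the differences of the means were smaller than the SD within either group. Per 1000000 alignments outside genes, LTRs summed to 201, 268 and 174 in the knockouts, against 283, 272 and 282 in the controls, so that every knockout lay below every control, with knockout 2 close to control 2. On that second scale internal parts overlapped, at 651, 861 and 616 in the knockouts and 798, 927 and 855 in the controls. Internal parts held 76.4%, 76.2% and 78.0% of IAP counts in the knockouts and 73.8%, 77.3% and 75.2% in the controls, so the balance between internal parts and LTRs was similar in the 2 groups and overlapped. Median log2 fold changes of the tested names were 0.41 for 5 internal parts and 0.66 for 9 LTRs. In bulk RNA of a whole embryo, a different number of cells with IAP transcripts and a different amount of IAP RNA per cell cannot be told apart.

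The fold changes of IAPEz-int and the IAPLTR1 names lay below those of the other names. This grouping was chosen after the values were seen and is given without a test. IAPEz-int, IAPLTR1_Mm and IAPLTR1a_Mm had log2 fold changes between -0.29 and 0.034, and the other 11 tested names between 0.081 and 1.13. Together the 3 names summed to 136, 102 and 106 CPM in knockouts 1, 2 and 3, against 108, 116 and 143 CPM in controls 1, 2 and 3. The 13 other IAP names, tested or not, summed to 113, 71.2 and 117 CPM in the knockouts, against 57.4, 84.8 and 81.4 CPM in the controls, with knockouts 1 and 3 above all controls and knockout 2 within them. Within a library, where scaling cancels, the 3 names held 54.5%, 59.0% and 47.5% of IAP counts in the knockouts, against 65.2%, 57.7% and 63.8% in the controls, and the groups overlapped through knockout 2 and control 2. IAPLTR2_Mm had 0.273, 0.230 and 0.389 counts per count of IAPLTR1_Mm in the knockouts, against 0.169, 0.141 and 0.147 in the controls. IAP-d-int had 0.132, 0.120 and 0.217 counts per count of IAPEz-int in the knockouts, against 0.0574, 0.0871 and 0.1 in the controls. Both pairs were chosen after their values were seen, and neither overlapped. Such ratios were common: over IAPLTR1_Mm, every knockout lay above every control for 9 of the 13 other tested IAP names and for 59.6% of all 850 other tested repeat names. Over IAPEz-int, this held for 7 of the 13 other IAP names and for 33.1% of all 850. IAPEY3-int over IAPEz-int overlapped, at 0.789, 0.645 and 0.977 in the knockouts and 0.576, 0.838 and 0.550 in the controls. A further ratio, of IAPEz-int to IAPLTR1_Mm and IAPLTR1a_Mm together, was 2.51, 2.53 and 2.63 in the knockouts, against 2.14, 2.18 and 2.36 in the controls, without overlap. It uses names of the grouping chosen after the values were seen. The share of all repeat names without overlap over this joint denominator was not computed. IAPLTR1_Mm makes up most of it, and over IAPLTR1_Mm alone that share was 59.6% with knockouts higher. Read the other way, over IAPEz-int, every knockout lay below every control for 1 of the 13 other tested IAP names, IAPLTR1_Mm. That held for 0.353% of all 850 other tested repeat names. Uncounted multiple alignments could not be assigned to any repeat name, and their part in these ratios was not tested.

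**Figure D2:**
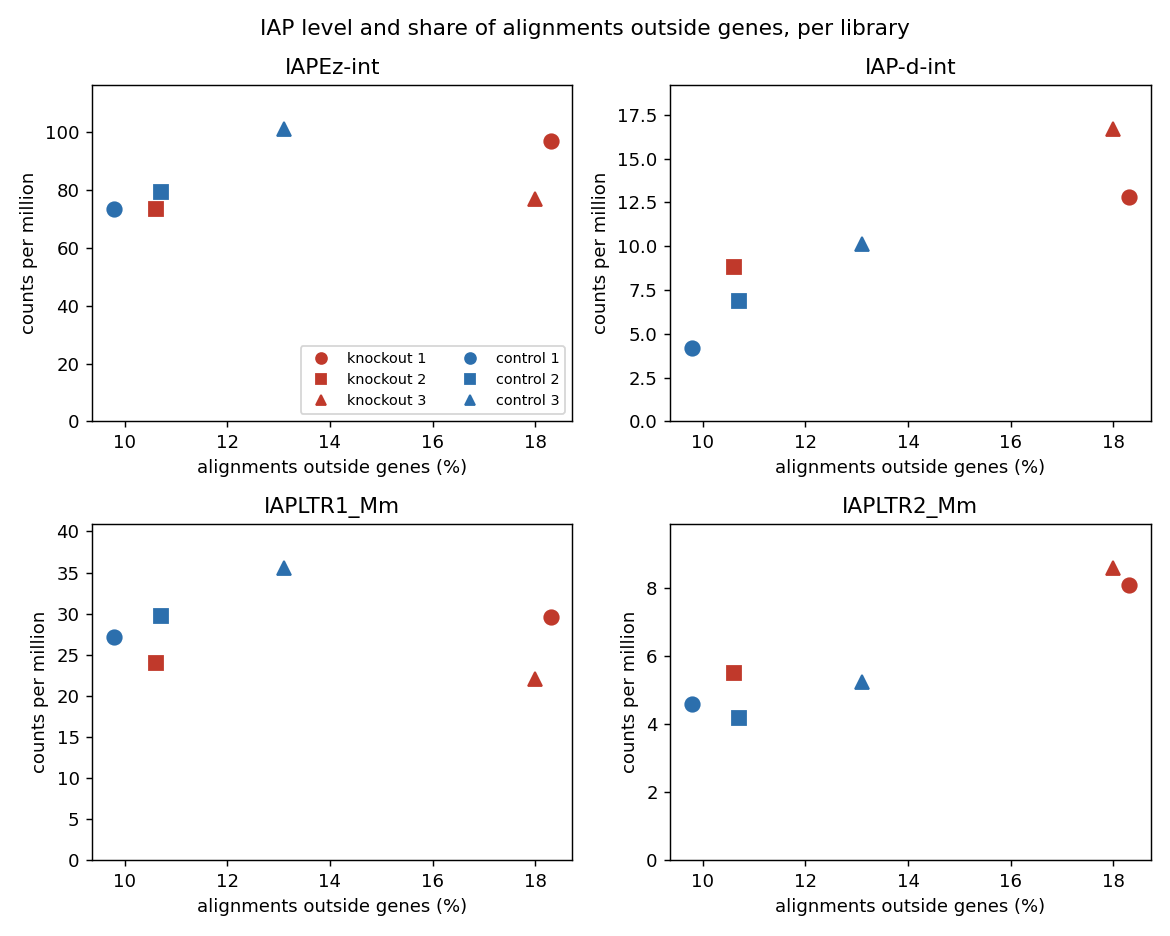
Level of 4 IAP names in CPM of scaled gene counts (vertical, linear from 0) against the share of alignments outside genes in percent (horizontal), with 1 point per library, knockouts in red and controls in blue. IAP-d-int and IAPLTR2_Mm are highest in knockouts 1 and 3, where the share is 18.3% and 18.0%, while IAPEz-int and IAPLTR1_Mm are not.

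Most IAP names were highest in the 2 libraries with the largest share of alignments outside genes. Knockouts 1 and 3, with shares of 18.3% and 18.0%, were the 2 highest libraries for 9 of the 14 tested names, or 64.3%, among them IAP-d-int, IAPLTR3-int, IAPEY3-int, IAPEY2_LTR and IAPLTR2_Mm. The same held for 78.3% of all 851 tested repeat names. The 5 IAP names outside the 9 were IAPEz-int, IAPLTR1_Mm, IAPLTR1a_Mm, IAPEY_LTR, which was highest in control 3, and IAPLTR3, which was second highest there. Among the 4 other libraries IAPLTR2b kept the order of the share. It had 0.891 CPM in control 1, 1.14 CPM in knockout 2, 1.16 CPM in control 2 and 1.41 CPM in control 3. IAP-d-int, IAPEY3_LTR and IAPLTR2a were lowest in control 1 and highest in control 3, but higher in knockout 2 than in control 2. Other names departed from the order in other ways, among them IAPLTR3-int. IAPLTR3-int had 2.51 CPM in knockout 2, where the share was 10.6%, against 2.12 CPM in control 3, where it was 13.1%. The part of this share in the IAP values was not tested. When reads were instead scaled by the alignments outside genes of the same library, the median log2 fold change was 0.010 over all 851 repeat names and 0.15 over the 14 IAP names. Of the 14, 8 were above 0, against 51.9% of all tested names. At an unadjusted p under 0.05, 2 IAP names were higher and 2 lower, against 5.05% and 4.23% of all names. No name was called in that fit either (lowest IAP adjusted p = 0.45 by edgeR, against 0% of all names called).

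Under that second scaling IAPEz-int and the IAPLTR1 names had the lowest log2 fold changes of the 14. IAPLTR1_Mm had 101, 156 and 78.5 CPM of alignments outside genes in knockouts 1, 2 and 3, against 178, 178 and 180 in controls 1, 2 and 3. All knockouts lay below all controls, which were nearly equal, and the log2 fold change was -0.68 ± 0.23 (SE), with an edgeR adjusted p of 0.45. IAPLTR1a_Mm had 31.1, 32.9 and 24.9 CPM on that scale in the knockouts, against 46.7, 39.5 and 35.2 in the controls, also without overlap, at -0.45 ± 0.17 and an adjusted p of 0.468. IAPEz-int had 332, 477 and 272 CPM on that scale in the knockouts, against 481, 474 and 509 in the controls, with knockout 2 inside the control range and a log2 fold change of -0.44 ± 0.19. Groups without overlap and with lower knockouts made up 6.58% of all tested names under this scaling. IAPEY2_LTR, IAPLTR2a and IAPLTR2b were the IAP names with every knockout above every control, against 9.05% of all names. IAPEY2_LTR, at 7.52, 6.25 and 5.11 CPM on that scale in the knockouts and 4.49, 3.86 and 4.11 in the controls, was the only tested IAP name whose knockouts were above all controls under both scalings. Its log2 fold change here was 0.60 ± 0.23 with an adjusted p of 0.468.

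**Figure D3:**
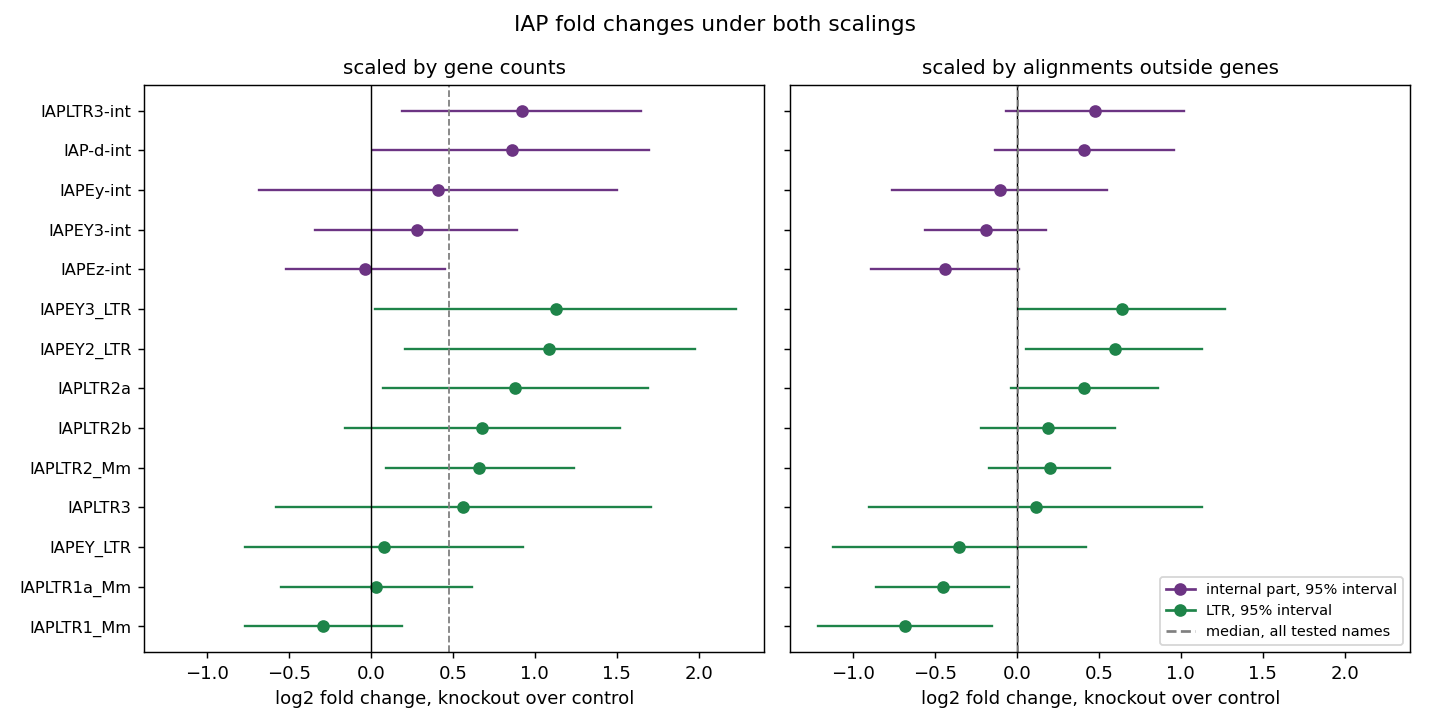
Log2 fold change, knockout over control, with 95% intervals for the 14 tested IAP names, scaled by gene counts (left) and by alignments outside genes (right), with internal parts in purple and LTRs in green. The dashed line is the median of all 851 tested repeat names, 0.48 on the left and 0.010 on the right, and IAPLTR1_Mm is the lowest IAP name in both panels.

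Among the alternatives tried, IAP names were called only when knockout 2 was left out. Without it, 8 of the 14 IAP names were higher by edgeR, with adjusted p-values of 0.00745 to 0.0492, among them IAPEY2_LTR at a log2 fold change of 1.34, IAPLTR2_Mm at 0.84, IAPLTR3-int at 1.06 and IAP-d-int at 1.06. This is 57.1% of the IAP names, while 61.3% of all repeat names were called higher in the same fit, so the IAP share was close to that of repeats at large. Names not among the 8 were IAPEz-int at 0.041, IAPLTR1_Mm at -0.25, IAPLTR1a_Mm at 0.22, IAPEY_LTR at 0.074, IAPEY3-int at 0.47 and IAPLTR3 at 0.64. IAPLTR1a_Mm thus lay above IAPEY_LTR in this fit. Leaving out any other single library gave no IAP call.

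The summed folds of 3 other groups of retroviral repeats were larger than those of IAPs, while the medians over names were in another order. ETn and MusD names, a related family of mobile mouse retroviruses, summed to 745, 614 and 778 CPM in knockouts 1, 2 and 3, against 403, 545 and 457 CPM in controls 1, 2 and 3, 1.52-fold on the means and without overlap. RMER names, which are older LTR elements of rodents, summed to 1090, 659 and 1090 CPM in the knockouts, against 568, 657 and 782 CPM in the controls, a fold of 1.42. MERVL and MT2, elements known for their activity in the mouse embryo at its earliest cleavage stage, summed to 454, 283 and 463 CPM in the knockouts, against 276, 310 and 357 CPM in the controls, a fold of 1.27. The fold of summed IAP names was 1.11 for internal parts and 1.03 for LTRs, and IAPEz-int and IAPEY3-int held most counts of the internal parts. The median log2 fold change over tested names was 0.61 for IAP, against 0.84 for ETn and MusD, 0.56 for RMER and 0.37 for MERVL and MT2. Scaled by alignments outside genes, summed IAP names had 852, 1130 and 790 CPM on that scale in the knockouts, against 1080, 1200 and 1140 in the controls, a fold of 0.811, while the folds were 1.13 for ETn and MusD, 1.02 for RMER and 0.921 for MERVL and MT2. The differences between these families were not tested.

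**Figure D4:**
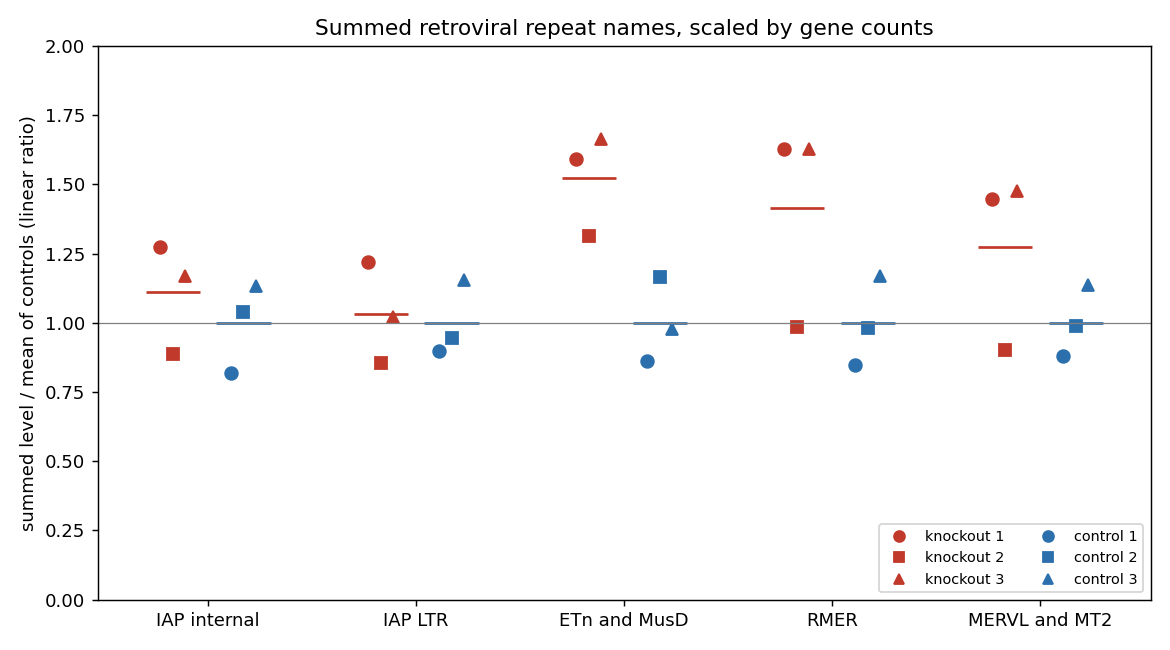
Summed level of retroviral repeat names in each library, scaled by gene counts and divided by the mean of the controls (vertical, linear from 0), with knockouts in red left of controls in blue and lines at group means (n = 3 each). IAP internal parts and LTRs overlap between the groups, ETn and MusD names do not, and knockout 2 is the lowest knockout in every family.

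Among listed genes tied to IAP silencing or to DNA methylation, the only calls were the H3.3 genes themselves. The list also holds Tet1, Tet2 and Tet3, enzymes that work against DNA methylation, so it is not made of silencing genes alone. Its zinc finger genes were listed as known to bind retroviral sequence, not IAPs in particular. Tet2 had a log2 fold change of 0.38 and an edgeR adjusted p of 0.158. Of 38 listed genes, 36 were tested, and 2 were lower and none higher by edgeR at an adjusted p under 0.05, against 0.955% lower and 0.551% higher over all 15075 tested genes. The 2 were H3f3a and H3f3b, the targeted genes, at log2 fold changes of -2.37 ± 0.075 and -0.60 ± 0.10 (SE) and adjusted p-values of 1.5e-06 and 0.0257. The call of H3f3b was lost without any 1 control or without knockout 3. The median log2 fold change of the 36 was 0.016, beside -0.0010 over all tested genes.

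Other members of the silencing list gave no call. Setdb1, the methyltransferase for lysine 9 of histone H3 at retroviral copies, averaged 149 ± 10.6 CPM in knockouts and 134 ± 3.24 CPM in controls (SD, n = 3 each), with a log2 fold change of 0.15 and an edgeR adjusted p of 0.296. Trim28, the co-repressor that brings Setdb1 to its targets, averaged 566 ± 39.5 CPM in knockouts and 640 ± 22.7 CPM in controls, at -0.18 and an adjusted p of 0.282. Dnmt1, the maintenance DNA methyltransferase, averaged 461 ± 16.7 CPM in knockouts and 408 ± 19.1 CPM in controls, with an adjusted p of 0.253. Uhrf1, which guides Dnmt1 to newly copied DNA, had a log2 fold change of 0.12, and Hells, a chromatin remodeller needed for methylation of repeats, one of -0.022. The H3.3 chaperones Atrx and Daxx were at -0.11 and 0.069, and Zfp809, a zinc finger protein that directs silencing to retroviral primer binding sites, at 0.055. Gm15446, a gene of the zinc finger group, had the largest upward log2 fold change among the 36 tested genes, with 60, 67 and 125 counts in the knockouts, against 43, 56 and 69 in the controls, and an adjusted p of 0.267. This gene was chosen after its values were seen.

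Cell type markers were compared because placenta and germ cells are known for IAP transcripts. Of 12 trophoblast and placenta markers, 6 including Tpbpa had no count in any library, and the sum of the list was 0.665 to 1.96 CPM in knockouts and 2.06 to 2.90 CPM in controls. Germ cell markers summed to 6.05 to 7.24 CPM in knockouts and 5.38 to 6.32 CPM in controls, and neither of the 2 tested members of 7 was called. Tdrd1 made up most of the sum, with means of 4.83 CPM in knockouts and 3.74 CPM in controls. Ddx4 averaged 1.36 CPM in knockouts and 1.57 CPM in controls. Dppa3 had 0 counts in every knockout, against 5, 2 and 3 in controls 1, 2 and 3. Dazl, Piwil2, Asz1 and Mael had 0 to 7 counts per library and overlapped between the groups. All 8 macrophage markers were lower in the knockouts by edgeR, with a summed level of 1.82 to 2.62 CPM in knockouts and 61.8 to 76.8 CPM in controls. Markers of yolk sac endoderm and liver bud summed to 89.9 to 184 CPM in knockouts and 169 to 265 CPM in controls, with 1 of 5 tested, the thyroid hormone carrier Ttr, lower. The part of these cell types in the IAP values was not tested. Markers of the neural tube (882 to 1020 CPM in knockouts, 1040 to 1220 CPM in controls) and of somite and heart (227 to 244 CPM in knockouts, 222 to 250 CPM in controls) were present, as the label of a whole embryo implies. The neural tube sums were lower in every knockout than in every control. The median log2 fold change of the 5 tested neural markers was -0.29, and none was called. Primitive erythroid markers summed to 5460 to 8870 CPM in knockouts and 7550 to 9590 CPM in controls, with none of 6 tested called. The part of these tissues in the IAP values was not tested either.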

How the data were processed

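The deposited values are raw counts of alignments, held per embryo in a table of gene symbols and a table of repeat names. Per the submitters' processing notes, the genome build was mm9 and the tools were Trimmomatic, TopHat2, Bowtie2 and HTSeq, with no versions or roles. The sources used here do not give the repeat annotation or the strand setting, although the library kit was stranded per the labels' protocols. Rows for alignments outside genes (9.79% to 18.3%), ambiguous ones and multiple ones (18.2% to 22.6%) stayed out of library sizes and tests. Young IAP copies are nearly identical, so they are represented only by reads placed uniquely.

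Repeat names were fitted with edgeR 4.0.16 in R 4.3.3 (robust quasi-likelihood F tests, group as the only term, all 6 libraries). Library sizes were the gene count totals of the same library times TMM factors of the gene counts. filterByExpr (minimum count 10, minimum total 15) kept 851 of 1217 names. Adjustment was by Benjamini-Hochberg over those names. Genes were fitted in the same way, 15075 of 23366 tested. Standard errors were taken from the F statistic and the log2 fold change, and intervals cover 95%. On simulated counts for the 851 names, 55.0% of 2-fold and 97.0% of 4-fold changes were recovered. In it, 100 names changed 2-fold and 100 changed 4-fold, up and down alike, and each name was drawn independently. The shift shared by most repeat names in the real libraries was not simulated. Recovery of the IAP names alone was not computed, so these shares do not give the power for sparse IAP names. DESeq2 1.42.0, limma-voom (limma 3.58.1), other scalings, filters, covariates and each library left out were alternatives.

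Names ending in -int or _I were taken as internal parts and the others as LTRs. The rule for named items took every IAP name, 10 genes of the silencing list and its called members. The IAP names and all lists were chosen with earlier results of these data known. Resf1 and Fam208a were found under older symbols through a RefSeq table. Counting error of an IAP total is 1.24% to 1.46% per library. Same-numbered libraries were not treated as pairs. File names carry codes that the labels do not explain. The codes differ between the groups, and within the knockouts numbers 2 and 3 share a code that number 1 does not, so a batch and the genotype cannot be told apart. No IAP sequence was used here.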

Additional observations from a re-analysis of the deposited data

How the results depend on the processing

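The IAP names had no call under any scaling, filter, covariate or tool tried with all 6 libraries, and 0 to 8 names called higher with single libraries left out, the 8 without knockout 2. Over all repeat names, 7 were called higher and 7 lower with the share of alignments outside genes as a covariate, 2 higher by DESeq2, and with single libraries left out 0 to 543 higher and 0 to 2 lower. The cause was not tested. The median over internal parts, 0.41, was -0.081 with TMM on the repeat counts, -0.10 with scaling by alignments outside genes, -0.14 with the covariate, and 0.18 to 0.78 with single libraries left out. That over LTRs, 0.66, was 0.21, 0.19 and 0.21 under the same 3 settings. The log2 fold of summed internal parts, 0.16, was -0.27 and -0.28, and that of summed LTRs, 0.047, was -0.37 and -0.38, under TMM on the repeat counts and scaling by alignments outside genes. Under TMM on the repeat counts, scaling by alignments outside genes and the covariate, in this order, the log2 fold change turned round for IAPEy-int (-0.081, -0.10, -0.49), IAPEY3-int (-0.18, -0.19, -0.14), IAPEY_LTR (-0.33, -0.35, -0.10) and IAPLTR1a_Mm (-0.44, -0.45, -0.34). IAPEz-int was at 0.019 on gene totals without TMM, and IAPLTR1a_Mm at -0.0031 with the replicate block and -0.0072 by limma-voom. With single libraries left out, IAPEz-int ran from -0.17 to 0.11, IAPEY_LTR from -0.15 to 0.40 and IAPLTR1a_Mm from -0.19 to 0.22. No other tested IAP name changed direction. Of the silencing list, 0 to 2 genes were called higher and 1 to 2 lower with single libraries left out. The 2 called higher were Morc2a and Tet2, without knockout 2.

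The groups' numbers did not pair the libraries: deviations from the group means correlated at -0.10, 0.25 and 0.33 over genes for numbers 1, 2 and 3, and not every library correlated best with its own number. The replicate block gave 0 IAP calls, with 126 repeat names at an unadjusted p under 0.05 beside 106 without it, and a median over internal parts of 0.31. Depth limits most the sparse names, such as IAPLTR4 and IAPLTR4_I, which could not be tested.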
